A study of Mus musculus with 2 samples.

Results

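CXC chemokines are small secreted proteins that direct the movement of leukocytes, and 7 of their genes (Cxcl1, Cxcl2, Cxcl3, Cxcl9, Cxcl10, Cxcl12 and Cxcl16) are described here out of 27188 gene symbols in a single-cell RNA series on mouse tumours. The 7 were taken by symbol, and every one had at least 1 molecule in each library. The first library, PBM, came from wild-type C57BL/6 mice with subcutaneous MC38 tumours (a mouse colon carcinoma line) that were given photobiomodulation, a light treatment, each day from day 7. The second library, control, came from MC38 tumours in the same strain and genotype, and the labels do not state what was done to its animals. In both, tumours were taken at day 14 and digested, CD45-positive cells were sorted, and the cells of a condition were pooled before library preparation. The labels give no number of mice per pool, and there was 1 library per condition. No test was therefore possible, and treatment, pool and library cannot be told apart. Intervals below are exact 95% intervals and cover counting error only.

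CXC chemokines are grouped by the residues around their first cysteines. Ligands with a Glu-Leu-Arg (ELR) sequence before the cysteine pair, such as Cxcl1, Cxcl2 and Cxcl3, act on Cxcr2 and are known for drawing neutrophils into tissue. Cxcl9 and Cxcl10 lack that sequence, are induced by interferons and act on Cxcr3 of activated T and NK cells. Cxcl12, made mainly by stromal cells, acts on Cxcr4 and Ackr3, and Cxcl16 is a transmembrane ligand of Cxcr6 that proteases such as Adam10 release from the cell surface.

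The ELR difference can be read in the coding sequences of GENCODE vM21 (GRCm38), shown as the 39 bases around the first cysteine codons. Capitals mark the 3 ELR codons where present and the codons of the Cys-X-Cys pair.
Cxcl1: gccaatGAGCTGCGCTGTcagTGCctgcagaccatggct
Cxcl2: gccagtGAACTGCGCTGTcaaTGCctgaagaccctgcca
Cxcl3: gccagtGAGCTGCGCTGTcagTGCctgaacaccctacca
Cxcl9: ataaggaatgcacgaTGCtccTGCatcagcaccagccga
Cxcl10: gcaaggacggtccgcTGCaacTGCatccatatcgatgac
Cxcl12: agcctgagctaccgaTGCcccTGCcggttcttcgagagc
Cxcl16: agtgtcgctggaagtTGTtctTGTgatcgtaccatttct
In these stretches the 3 ELR ligands carried the Glu, Leu and Arg codons directly before the first cysteine codon, and the other 4 did not. In GRCm38 the genes of 5 members lie on chromosome 5: Cxcl3 at chr5:90786103-90789600, Cxcl1 at chr5:90891241-90893115 and Cxcl2 at chr5:90903871-90905938 on the plus strand, and Cxcl9 at chr5:92321347-92328079 and Cxcl10 at chr5:92346638-92348889 on the minus strand. Cxcl12 lies at chr6:117168535-117181367 on the plus strand, and Cxcl16 at chr11:70453983-70459984 on the minus strand. The coding sequences of Cxcl2 and Cxcl3 were 89.8% identical, against 75.6% for Cxcl1 and Cxcl2 and 45.1% for Cxcl9 and Cxcl10. The Cxcl2 and Cxcl3 transcripts shared 51 stretches of 60 bases, and none of these lay in the last 500 bases of Cxcl3, near where a 3′ kit reads. A part of the reads of these 2 genes could still have been shared between them.

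Promoters are shown because Cxcl2 and Cxcl3 peaked in other monocyte/macrophage sub-clusters than Cxcl10 did (below). They come from RefSeq (GRCm38.p6), which matched 6 of the 7 members (Cxcl16 is named only). The stretches cover bases 150 to 51 before the start of Cxcl1 (chr5:90891095-90891194), Cxcl2 (chr5:90903749-90903848) and Cxcl3 (chr5:90785951-90786050), and bases 250 to 151 before the start of Cxcl10 (chr5:92349040-92349139, given on the minus strand). Capitals mark matches, on either strand, to a kappaB pattern (GGG, any 2 bases, TTTCC, bound by NF-kB) and, in Cxcl10, to a pattern of the interferon-stimulated response element (GAAA, any 2 bases, GAAA).
Cxcl1: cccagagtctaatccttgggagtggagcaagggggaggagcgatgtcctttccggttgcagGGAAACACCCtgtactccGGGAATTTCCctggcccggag
Cxcl2: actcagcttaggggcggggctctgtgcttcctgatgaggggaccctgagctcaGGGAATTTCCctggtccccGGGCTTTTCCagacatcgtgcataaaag
Cxcl3: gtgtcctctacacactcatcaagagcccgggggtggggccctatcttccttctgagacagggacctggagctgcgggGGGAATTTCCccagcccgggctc
Cxcl10: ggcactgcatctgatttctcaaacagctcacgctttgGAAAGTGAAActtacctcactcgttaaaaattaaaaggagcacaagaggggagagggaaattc
In the 250 bases before the start, the kappaB pattern had 2 matches each in Cxcl1 and Cxcl2, 1 in Cxcl3 and none in Cxcl9, Cxcl10 or Cxcl12, and 1.41% of 32851 promoters held it. The interferon response pattern matched once in Cxcl10 and in no other of the 6, and 2.98% of all promoters held it. TTCNNNGAA (a STAT pattern) matched none of the 6 and 7.02% of all promoters. These are letter matches, and binding was not measured. Each pattern is 1 fixed form, and wider forms of these sites were not searched. The lack of a match, as for kappaB in Cxcl10, therefore does not show that a site is absent.

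After filters the PBM library held 13059 cells and the control library 11096, with 77551110 and 102393979 unique molecular identifiers (UMIs) in those cells. The makeup of the libraries stood far apart. Monocyte/macrophage-like cells numbered 188 in PBM and 5105 in control, dendritic-like cells 87 and 462, neutrophil-like cells 12 and 71, and Sparc-led cells 7 and 1207. T-like cells numbered 6754 in PBM and 2574 in control, and B-like cells 5591 and 205. The Sparc-led cells of control express connective tissue genes although the sort was for CD45. In the 7 PBM cells of this name, the 8 Sparc-led markers summed to 118 CPM, with 5 at 0, against 2725 in control. Their T markers summed to 492 CPM and their B markers to 407, so the name rests on the control cells. Ptprc, which encodes CD45, had a UMI in 28.6% of Sparc-led cells in PBM and 26.0% in control. In monocyte/macrophage-like cells these shares were 53.7% and 67.1%. Levels are given as CPM, the UMIs of a gene in each 1000000 UMIs of its class. The libraries shared 1991 barcode names, which are running cell numbers and not sequences.

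Scaled to the UMIs of the whole library, all 7 members were lower in PBM than in control. Cxcl9 stood at 2.80 CPM in PBM and 397 in control, Cxcl16 at 3.55 and 268, Cxcl2 at 4.73 and 187, and Cxcl10 at 4.85 and 119.7. Cxcl3 stood at 1.74 and 56.4, Cxcl1 at 0.0645 (5 UMIs) and 3.52, and Cxcl12 at 0.0129 (1 UMI) and 0.117 (12 UMIs). These values follow both the number of producing cells and the RNA in each, which the class levels below separate. In PBM, neutrophil-like cells were 0.0919% of cells and held 61.6% of the Cxcl2 and 54.1% of the Cxcl3 UMIs, while monocyte/macrophage-like cells, 1.44% of cells, held 49.8% of Cxcl9 and 63.3% of Cxcl16. For PBM Cxcl10 the largest share, 43.4%, was in the T-like cells, against 32.2% in monocyte/macrophage-like cells. T-like cells were 51.7% of PBM cells, above their share of Cxcl10, and 1.20% of them had a UMI of it. In control, monocyte/macrophage-like cells were 46.0% of cells and held 80.9 to 90.1% of the UMIs of each member other than Cxcl12.

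**Figure D1:**
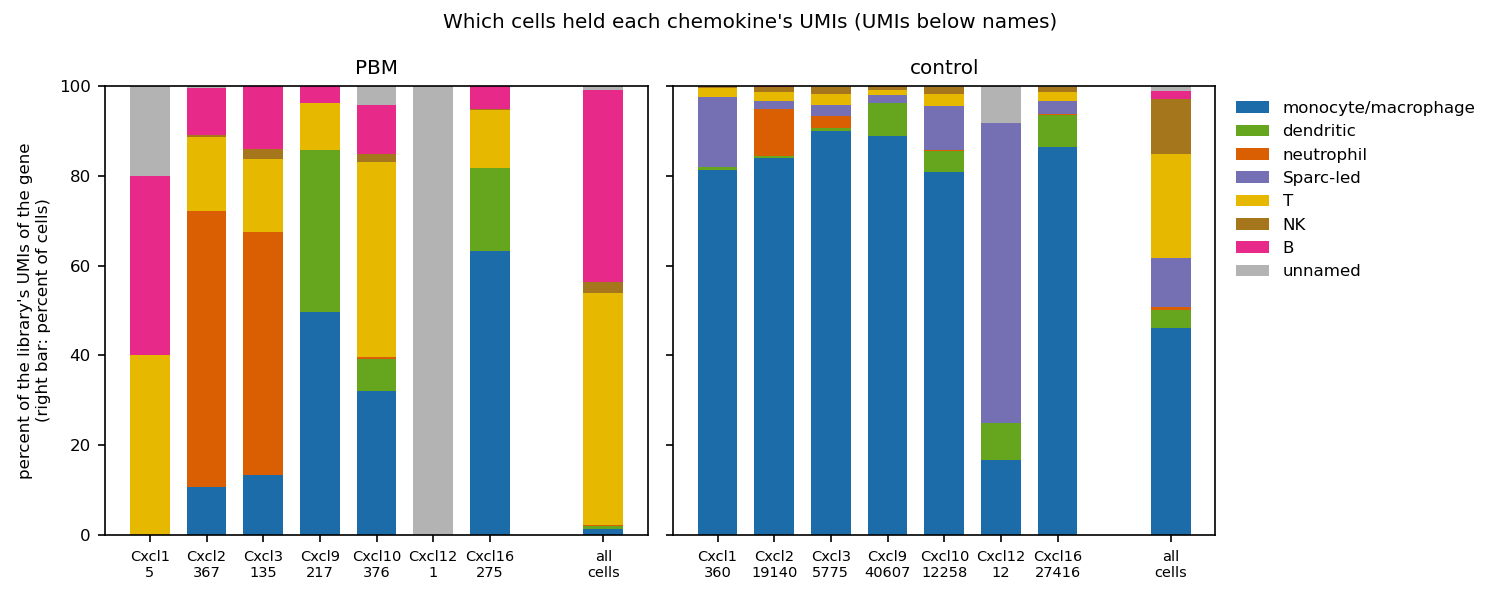
Share of each chemokine's UMIs by cell class (percent), in the PBM library (left) and the control library (right); colours are classes. Neutrophil-like cells held 61.6% of PBM Cxcl2, and monocyte/macrophage-like cells held 83.9% of control Cxcl2.

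The neutrophil chemoattractants Cxcl2 and Cxcl3 were, among whole classes, highest in neutrophil-like cells themselves, in both libraries. Cxcl2 reached 10151 CPM in the 12 PBM cells (interval 8871 to 11564) and 10116 CPM in the 71 control cells (9676 to 10570). Cxcl3 reached 3279 CPM in PBM (2570 to 4123) and 834 in control (711.7 to 972). The PBM values rest on few cells: 1 cell held 150 of the 226 Cxcl2 UMIs and 58 of the 73 Cxcl3 UMIs. In control, Cxcl2 followed at 311 CPM in monocyte/macrophage-like, 30.9 in dendritic-like and 16.4 in Sparc-led cells. Control T-, NK- and B-like cells, which should make little of it, had 23.9, 24.2 and 30.5 CPM, and the dendritic-like and Sparc-led values lay near this background. In PBM the same lymphocyte classes had 1.32, 0.743 and 1.38 CPM of Cxcl2, so the background differed between the libraries. Control Cxcl3 had the same order, at 101 CPM in monocyte/macrophage-like, 8.75 in dendritic-like and 6.81 in Sparc-led cells, against 8.78, 9.11 and 6.43 in T-, NK- and B-like cells. Cxcl1, the third ELR ligand, was scarce. It had 5.67 CPM in control monocyte/macrophage-like cells and 2.68 in Sparc-led cells, against at most 0.452 in lymphocytes, and no UMI in neutrophil-like cells (3 UMIs would be 134.7 CPM in PBM and 15.3 in control).

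The Cxcr3 ligands Cxcl9 and Cxcl10 had levels in mononuclear phagocytes far above those of lymphocytes in both libraries. In control, Cxcl9 was highest in dendritic-like cells, at 927 CPM (893.7 to 961), then monocyte/macrophage-like cells, at 698 (690.7 to 705), with 168 in neutrophil-like cells and 32.4 in Sparc-led cells. The Sparc-led value lay within the 24.1 to 33.0 CPM of control lymphocytes. Taken instead as all cells with at least 3 Sparc UMIs, whatever their cluster, control Sparc-positive cells had 107 CPM of Cxcl9. Control Cxcl10 was highest in neutrophil-like cells at 234 CPM (171 to 312, 46 UMIs), followed by monocyte/macrophage-like cells at 192 and dendritic-like cells at 174. The neutrophil interval overlapped both of the other two, and 1 cell held 27 of its 46 UMIs. With each cell thinned to 1000 UMIs the order turned, at 211 CPM in neutrophil-like and 225 in monocyte/macrophage-like cells. Sparc-led cells had 57.7 CPM of Cxcl10, against 17.7 to 20.1 in lymphocytes. In PBM, Cxcl9 stood at 174 CPM in monocyte/macrophage-like and 154 in dendritic-like cells, Cxcl10 at 196 and 51.2 CPM, and T-, NK- and B-like cells had 0 to 0.506 CPM of Cxcl9 and 1.49 to 3.59 of Cxcl10.

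Cxcl16 was the member detected in the largest share of monocyte/macrophage-like and dendritic-like cells in both libraries. A UMI of it was found in 29.8% of monocyte/macrophage-like cells in PBM and 70.0% in control, against 0.232% and 6.83% of B-like cells. The median cell had 2192 and 7011 UMIs in the phagocytes, and 4450 and 2679 in the B-like cells, so the unthinned shares are not on a common depth. With each cell thinned to 1000 UMIs, the shares were 16.0% in PBM and 30.5% in control monocyte/macrophage-like cells, against 0.0179% and 2.44% of B-like cells. By CPM, control Cxcl16 was highest in dendritic-like cells at 609, then 459 in monocyte/macrophage-like, 76.3 in neutrophil-like and 39.5 in Sparc-led cells, the last near the 24.1 to 35.5 of lymphocytes. Cxcl12, known from stromal cells, was almost undetected: the control Sparc-led cells held 8 UMIs, all in 1 cell, and PBM held 1 UMI in the whole library.

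**Figure D2:**
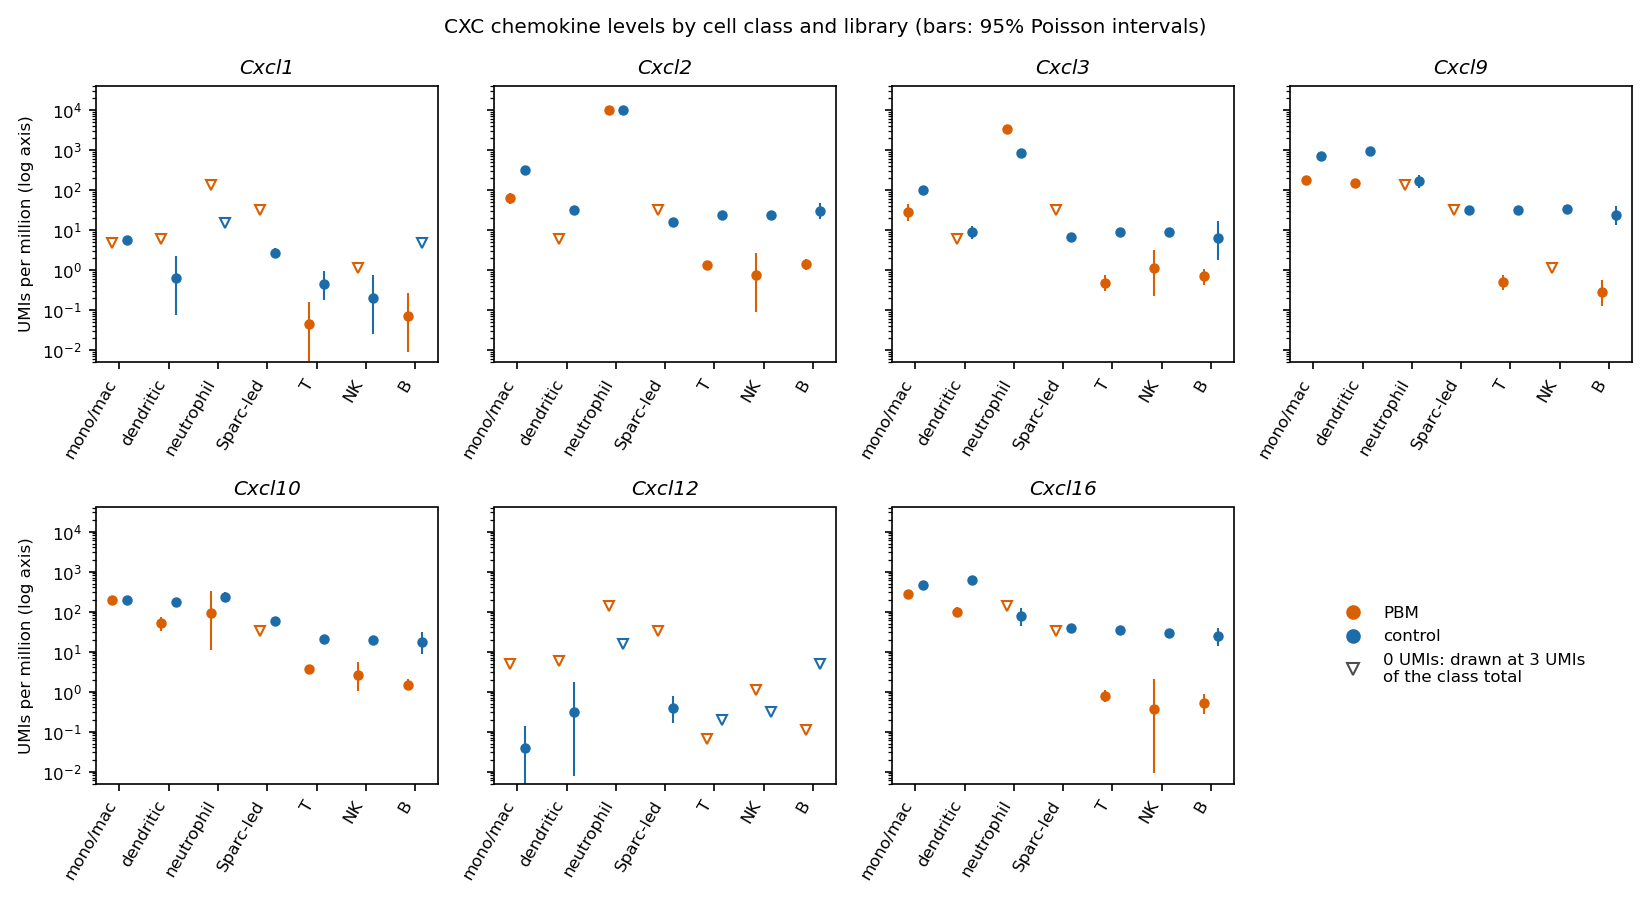
Level of each chemokine (CPM of class UMIs, log axis) by cell class in PBM and control; bars are 95% counting intervals and open triangles mark 0 UMIs, drawn at 3 UMIs of the class total. Cxcl2 in neutrophil-like cells lies at 10151 CPM in PBM and 10116 in control, and all 7 members of PBM Sparc-led cells (7 cells) are at 0.

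Monocytes and macrophages differed among themselves. In control, Cxcl10 was 778 CPM in 697 classical monocyte-like cells, 144 in 1760 macrophage-like cells and 52.1 in 438 nonclassical monocyte-like cells. Cxcl9 was closer between the first pair, at 663 and 555 CPM, and 26.4 in nonclassical monocyte-like cells, within the range of lymphocytes. Cxcl2 was 184 in classical monocyte-like and 188 in macrophage-like cells, with overlapping intervals, and 28.9 in nonclassical monocyte-like cells. Cxcl16 was 413 in macrophage-like, 234 in classical and 63.4 in nonclassical monocyte-like cells. Among dendritic-like cells the mature ones, marked by Ccr7 and Fscn1, had the most Cxcl16, with 1139 CPM and a UMI in 93.5% of 154 control cells, but 233 CPM of Cxcl9.

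The sub-clusters, built without the 7 genes, differed in which member was highest. Among the control sub-clusters with at least 50 cells, a sub-cluster led by Inhba, Pgf and Hcar2 (116 cells) had the peak of all 3 ELR ligands, with 1887 CPM of Cxcl2, 938 of Cxcl3 (above the 834 of neutrophil-like cells as a class) and 17.2 of Cxcl1, but 108 CPM of Cxcl9. A sub-cluster led by Fpr1 and Spp1 (575 cells) came next for Cxcl2 and Cxcl3, with 819 and 302 CPM. Cxcl9 peaked at 2496 CPM in a sub-cluster led by Ly6i and Cfb (678 cells) and at 2403 CPM in dendritic-like cells led by Qpct (53 cells). Cxcl10 peaked elsewhere, at 1396 CPM in classical monocyte-like cells led by the interferon-induced Isg15 and Ifi205 (337 cells), against 428 CPM in the Ly6i-led cells. Cxcl16 peaked in the 2 mature dendritic sub-clusters of that size, at 1249 and 1062 CPM, and stood at 952 in the Ly6i-led cells. The Ace-led nonclassical monocyte-like cells and the Igkc-led classical monocyte-like cells were low for Cxcl2, Cxcl3, Cxcl9 and Cxcl16.

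**Figure D3:**
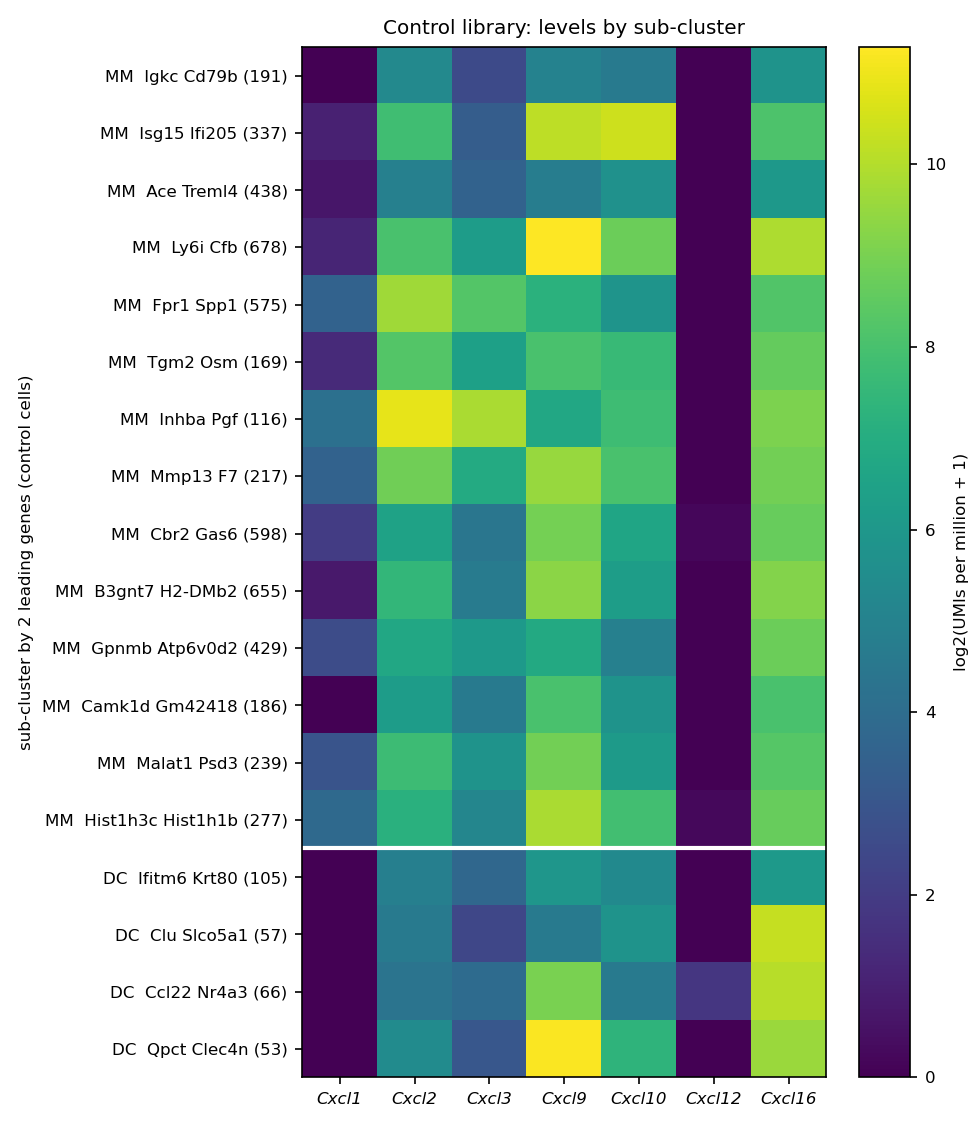
Level of each chemokine (CPM, log colour scale) in the 18 control sub-clusters of monocyte/macrophage-like (MM) and dendritic-like (DC) cells with at least 50 cells, named by their leading genes. Cxcl2 and Cxcl3 peak in the Inhba-led sub-cluster (1887 and 938 CPM), Cxcl9 in the Ly6i-led (2496) and Cxcl10 in the Isg15-led sub-cluster (1396).

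Across the 27 control clusters with at least 50 cells, genes were ranked by Pearson r with each member, on log2(CPM + 1), among 9800 genes with at least 500 UMIs there. All clusters share 1 library, and r is a description. Cxcl2 was most like Hcar2 (0.928), a receptor for hydroxybutyrate, Clec4d (0.925), a C-type lectin, and Ier3 (0.919), and its r was 0.913 with Cxcl3 and 0.662 with Cxcl10. Cxcl3 was most like Hcar2 (0.917), the formyl peptide receptor gene Fpr1 (0.865) and Grina (0.857). Cxcl1 was most like Egln1 (0.852), an oxygen-sensing hydroxylase, the protease gene Ctsl (0.844) and the metallothionein gene Mt1 (0.829), and its r was 0.507 with Cxcl2 and 0.592 with Cxcl3, both below that of Cxcl2 with Cxcl10. Cxcl9 was most like AA467197 (0.854), the complement gene Cfb (0.820) and Tarm1 (0.811). Cxcl10 was most like the transglutaminase gene Tgm2 (0.847), Sod2 (0.837), a mitochondrial superoxide dismutase, and Nampt (0.793), of NAD salvage. Cxcl16 was most like F11r (0.912), a junctional adhesion molecule, Basp1 (0.893) and the syntaxin gene Stx4a (0.884). Cxcl12, with 12 UMIs, had Nr2f1 (0.698), B4galt2 (0.694) and Pcdh15 (0.669).

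Within control monocyte/macrophage-like cells thinned to 1000 UMIs, Cxcl10 was found in 20.6% of the 999 cells with Cxcl9, against 6.09% of the 4106 cells without it. Cxcl16 was found in 45.9% of the cells with Cxcl9 and 26.7% of those without it. Cxcl3 was found in 16.0% of the cells with Cxcl2 and 2.53% of those without it. Cxcl2 went the other way with Cxcl9, being found in 9.01% of the cells with Cxcl9 and 13.4% of those without it. The transcripts were unevenly spread: the 10% of control cells with the most held 94.7% of Cxcl3, 92.1% of Cxcl10, 85.3% of Cxcl2, 84.5% of Cxcl9 and 45.2% of Cxcl16 UMIs. Single cells held up to 700 UMIs of Cxcl9, 418 of Cxcl2 and 117 of Cxcl16.

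Between the libraries, monocyte/macrophage-like cells had less Cxcl2, Cxcl3, Cxcl9 and Cxcl16 by CPM in PBM than in control, and a like level of Cxcl10. Cxcl2 stood at 63.0 CPM in PBM (39 UMIs in 13 of 188 cells) and 311 in control, a log2 ratio of -2.30 (-2.79 to -1.85). Cxcl9 stood at 174 CPM in PBM (108 UMIs in 20 cells) and 698 in control, a log2 ratio of -2.0 (-2.29 to -1.73). Cxcl3 stood at 29.1 CPM in PBM (18 UMIs) and 101 in control, a log2 ratio of -1.79 (-2.55 to -1.13). Cxcl16 stood at 281 CPM in PBM (174 UMIs in 56 cells) and 459 in control, a log2 ratio of -0.71 (-0.93 to -0.49). Cxcl10 stood at 196 CPM in PBM (121 UMIs in 20 cells) and 192 in control, a log2 ratio of 0.03 (-0.24 to 0.29). Cxcl1 had no UMI in PBM and 5.67 CPM in control. With PBM set to 3 UMIs its log2 ratio was -0.23, and the upper limit of its interval, 0.08, lay above 0. Cxcl12 gave no ratio. When the libraries were clustered separately, the log2 ratio was -0.45 for Cxcl2 and -0.30 for Cxcl3, both short of 2-fold, and -1.21 for Cxcl16. Of the 6 members with at least 20 UMIs, 3 were at least 2-fold lower in PBM, where 9.04% of 13780 genes were, and 0 were at least 2-fold higher, where 10.8% of genes were.

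A few PBM cells carried much of these sums. In monocyte/macrophage-like cells 1 cell held 61 of the 108 Cxcl9 UMIs, and another 35 of the 121 Cxcl10 UMIs. Without the cell that held the most of each gene, the log2 ratio was -3.18 for Cxcl9, -0.45 for Cxcl10, -2.99 for Cxcl2, -2.05 for Cxcl3 and -0.88 for Cxcl16. The cells compared also differed in kind. Of the PBM cells, 71.3% were in the Igkc-led sub-cluster, against 3.74% of the control cells, and 7 were macrophage-like, against 1760. The Cfb-led cluster held 71 PBM and 2564 control cells, the Ace-led cluster 74 and 717, and the Ccl8-led cluster 43 and 1824. These main clusters and the sub-clusters are different groupings of the same cells. The Cfb- and Ace-led clusters thus share PBM cells with the Igkc-led sub-cluster. UMIs of B- or T-cell markers were found in 95.2% of PBM and 57.7% of control monocyte/macrophage-like cells, and the 7 B markers summed to 890 CPM in PBM and 12.2 in control, the 6 T markers to 751 and 128. The median cell held 2192 UMIs in PBM and 7011 in control. The part of cell makeup, lymphocyte RNA and depth in these ratios was not tested, apart from the values within subtypes that follow.

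**Figure D4:**
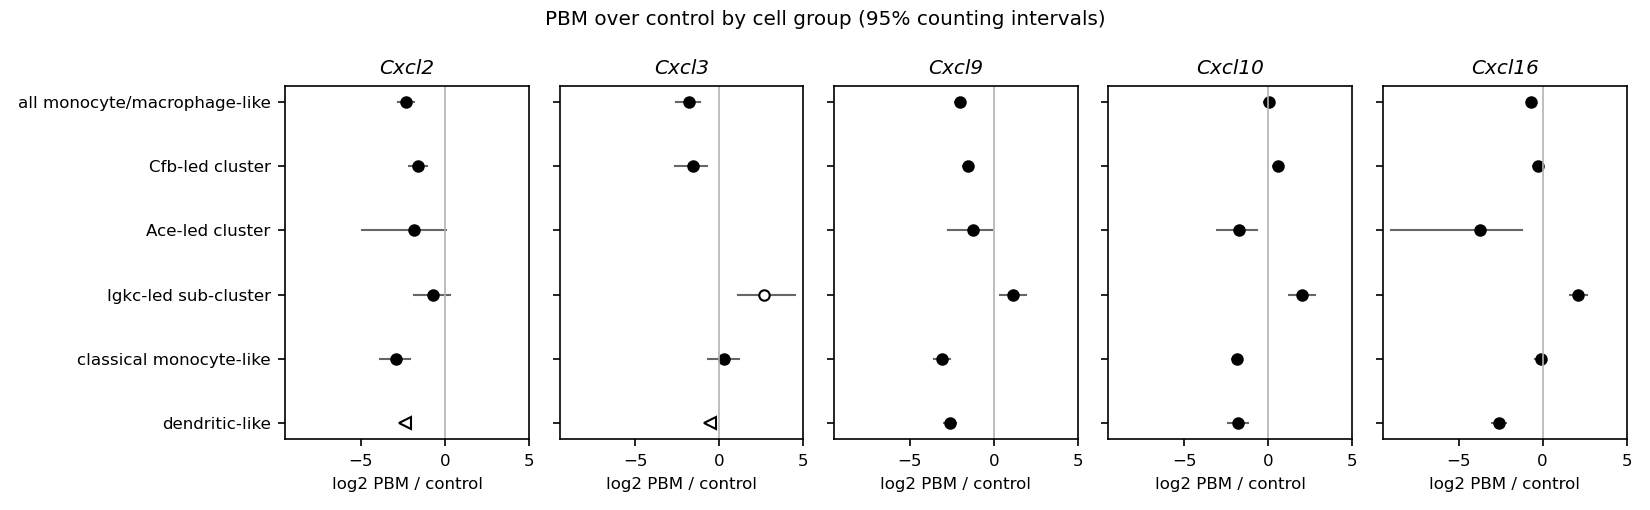
Log2 ratio of PBM over control for each chemokine in cell classes and clusters with at least 50 cells in each library. Bars are 95% counting intervals, filled points have at least 20 UMIs, and open circles fewer. Open triangles are ratios with PBM set to 3 UMIs where it was at 0. Cxcl9 in dendritic-like cells lies at -2.59, and Cxcl10 at 0.03 in monocyte/macrophage-like cells and -1.77 in dendritic-like cells.

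Within classical monocyte-like cells (154 in PBM, 697 in control), Cxcl9 stood at 79.7 CPM in PBM and 663 in control, a log2 ratio of -3.06 (-3.55 to -2.60). Cxcl2 stood at 24.5 and 184 CPM, a log2 ratio of -2.91 (-3.87 to -2.10), and Cxcl10 at 219 and 778 CPM, a log2 ratio of -1.83. Cxcl3 and Cxcl16 differed little, at 0.31 (-0.67 to 1.17) and -0.12. Of the 5 members with enough UMIs, 3 were at least 2-fold lower in PBM, where 9.51% of genes were. These cells were spread differently over sub-clusters: 134 PBM and 191 control cells were Igkc-led, and 17 PBM and 337 control cells were Isg15-led, the sub-cluster with the control peak of Cxcl10. In the Igkc-led cells alone, Cxcl9, Cxcl10 and Cxcl16 were higher in PBM. Cxcl2 stood at 23.8 CPM in PBM and 38.5 in control, a log2 ratio of -0.70 whose interval reached 0 (-1.86 to 0.33), and Cxcl3, with 18 UMIs in all, had a log2 ratio of 2.68 (1.10 to 4.52). Cxcl16 stood at 235 CPM in PBM and 53.9 in control, a log2 ratio of 2.12 (1.64 to 2.62), Cxcl10 at 97.4 and 24.1 CPM, a log2 ratio of 2.02, and Cxcl9 at 68.9 and 30.8 CPM, a log2 ratio of 1.16 (0.38 to 1.93). Here 3 of 4 members with enough UMIs were at least 2-fold higher in PBM, where 6.88% of genes were. The control values of these cells lay near the lymphocyte background given above. Without the cell with the most UMIs the log2 ratios were 1.99 for Cxcl16, 1.25 for Cxcl10 and 0.57 (-0.33 to 1.43) for Cxcl9. This sub-cluster has the monocyte gene Hp and also the B-cell genes Igkc, Cd79b and Ighm among its leading genes, and its part in the result was not tested.

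In the Cfb-led cluster, Cxcl9 stood at 369 CPM in PBM and 1063 in control, a log2 ratio of -1.53, while Cxcl10 stood at 402 and 265 CPM, a log2 ratio of 0.60 (0.31 to 0.88). Without the PBM cell with the most Cxcl10 that ratio was 0.07 (-0.29 to 0.40). Cxcl2 stood at 126.7 and 377 CPM (log2 ratio -1.57) and Cxcl16 at 462 and 562 (log2 ratio -0.28). None of the members was at least 2-fold higher in PBM there, where 11.4% of genes were. In the Ace-led cluster, Cxcl16 stood at 4.31 CPM in PBM and 57.2 in control (log2 ratio -3.73), Cxcl10 at 30.1 and 98.9 (-1.71) and Cxcl9 at 25.8 and 60.6 (-1.23). This main cluster (74 PBM and 717 control cells) is not the Ace-led nonclassical sub-cluster, which held 14 and 438.

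Dendritic-like cells (87 in PBM, 462 in control) had less of each member with enough UMIs in PBM. Cxcl9 stood at 154 CPM in PBM (78 UMIs in 10 cells) and 927 in control, a log2 ratio of -2.59 (-2.94 to -2.27). Cxcl16 stood at 100.4 CPM in PBM (51 UMIs in 21 cells) and 609 in control, a log2 ratio of -2.60 (-3.03 to -2.20). Cxcl10 stood at 51.2 CPM in PBM (26 UMIs in 5 cells) and 174 in control, a log2 ratio of -1.77 (-2.39 to -1.20), and at -3.64 without the cell that held 19 of the 26 UMIs. Cxcl2 and Cxcl3 had no UMI in PBM. With PBM set to 3 UMIs they were 5.24-fold and 1.48-fold lower, with upper log2 limits of -2.06 and -0.17. Thus 4 of 5 members were at least 2-fold lower in PBM, where 12.4% of genes were. The makeup differed here too: 5 PBM and 154 control cells were mature, 31 and 39 plasmacytoid, and 33 PBM and 0 control cells were in an unnamed sub-cluster led by Nr1h3 and Adgre4. B markers summed to 699 CPM in PBM and 18.8 in control dendritic-like cells. The 10 dendritic markers summed to 1567 CPM in PBM and 2597 in control, and the 10 monocyte/macrophage markers to 3197 and 1949. The 6 plasmacytoid dendritic markers summed to 3327 and 614 CPM, and the 7 classical monocyte markers to 4768 and 1725. The latter list was not particular to monocytes, at 7965 CPM in PBM and 6963 in control plasmacytoid dendritic-like cells. The part of these in the ratios was not tested.

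Of the other CXC ligands, 3 of 8 had at least 20 UMIs in monocyte/macrophage-like cells, and all 3 were at least 2-fold lower in PBM (9.04% of all genes were), with a median log2 ratio of -2.59 over them, against 0.00046 over all genes. Cxcl14 stood at 3.23 CPM in PBM and 48.4 in control (log2 ratio -3.90), and the platelet chemokine gene Ppbp had a log2 ratio of -2.59 and Pf4 of -1.05. Pf4 went the other way within classical monocyte-like cells, at 628 CPM in PBM and 185.0 in control (log2 ratio 1.76), and within the Igkc-led cells, at 729 and 69.4 CPM. Of 16 interferon-gamma-inducible genes, 4 were at least 2-fold higher in PBM (10.8% of all genes were) and 0 lower (9.04%), with a median log2 ratio of 0.75. In classical monocyte-like cells 1 of the 16 was at least 2-fold lower, near the share over all genes (9.51%). The median there was -0.31, against -0.09 over all genes. Over all monocyte/macrophage-like cells, the GTPase gene Gbp4 (1.35) and Ciita (1.25), a regulator of MHC class II genes, were the highest. B markers summed to 890 CPM in PBM and 12.2 in control there, and the part of lymphocyte RNA in these ratios was not tested. Gbp7 (-0.15) and Iigp1 (-0.01) were the lowest there. In the Cfb-led cluster 7 of the 16 were at least 2-fold higher (11.4% of all genes were), with Socs1, an inhibitor of cytokine signalling, at 1.58 and Gbp4 at 1.56, and the median was 0.99, against 0.05 over all genes. In dendritic-like cells 5 of the 16 were at least 2-fold lower (12.4% of all genes were), with Gbp2 at -3.02 and Gbp5 at -2.73, and the median was -0.56, against 0.04 over all genes.

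Of 15 NF-kB target genes in monocyte/macrophage-like cells, 2 were at least 2-fold lower in PBM, the cytokine genes Tnf (-1.46) and Il1a (-1.30), and 1 was higher, Ptgs2 (1.69), which encodes a prostaglandin synthase, followed by Nfkb1 (0.77), with a median of 0.09. These counts are near the shares over all genes (9.04% lower, 10.8% higher). In classical monocyte-like cells 3 of 14 were at least 2-fold lower (9.51% of all genes were), with a median of -0.72. In dendritic-like cells 7 of 12 were at least 2-fold lower (12.4% of all genes were), led by the chemokine gene Ccl3 (-3.55) and Il1b (-2.45), with a median of -1.14. Of 4 chemokine-cleaving proteases, Adam10, which sheds Cxcl16, had a log2 ratio of -0.69, the related Adam17 of -0.45 and Dpp4, which trims Cxcl9, Cxcl10 and Cxcl12, of 1.94, and Mmp9 had 0 UMIs in PBM and 13.6 CPM in control. Their median was -0.57. T markers summed to 751 CPM in PBM and 128 in control monocyte/macrophage-like cells, and the part of lymphocyte RNA in the Dpp4 ratio was not tested. None of 12 immediate early and heat shock genes, which tissue digestion can induce, was 2-fold higher or lower (median 0.22), with Junb and Atf3 the highest (0.64 each) and Jun (-0.45) and Fosb (-0.44) the lowest. In dendritic-like cells 4 of these 12 were at least 2-fold lower (12.4% of all genes were), with a median of -0.64. In the Cfb-led cluster 3 of the 12 were at least 2-fold higher (11.4% of all genes were), with a median of 0.30, beside the higher Cxcl10 there, and in the Igkc-led cells the median of 10 was -1.08, against -0.14 over all genes. Their part in the members' ratios was not tested.

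Cxcr2, the receptor of the ELR ligands, stood at 449 CPM in PBM and 631 CPM in control neutrophil-like cells. These cells had the highest Cxcl2. Cxcr1 stood at 0 CPM in the 12 PBM neutrophil-like cells and 20.4 CPM (4 UMIs) in the control ones. A count of 0 in those PBM cells has an upper counting limit of 165.7 CPM, so Cxcr1 could not be compared. Cxcr3, the receptor of Cxcl9 and Cxcl10, stood at 43.1 CPM in PBM and 105.4 in control T-like cells, at 64.3 and 45.0 in NK-like cells and at 71.3 and 71.0 in plasmacytoid dendritic-like cells. Cxcr6, the receptor of Cxcl16, stood at 40.8 CPM in PBM and 391 in control T-like cells. Cxcr4 was spread over classes, with 36.9 CPM in PBM and 115.7 in control B-like cells and 22.6 and 25.1 in monocyte/macrophage-like cells. Cxcr5, of follicular homing, stood at 128 CPM in PBM and 169 in control B-like cells. In monocyte/macrophage-like cells 6 receptors had enough UMIs, of which 1 gave no ratio. Cxcr5 was the only 1 of them at least 2-fold higher in PBM, where 10.8% of all genes were. It stood at 32.3 CPM there, against 0.542 in control, beside the B marker sums given above. The median log2 ratio of the receptors with a ratio was 0.09. Ackr3, a scavenger of Cxcl12, stood at 0 CPM in the 7 PBM Sparc-led cells and 50.0 in control Sparc-led cells. In monocyte/macrophage-like cells Ackr3 stood at 0 CPM in PBM and 6.09 in control. A PBM count of 0 has an upper counting limit of 39.5 CPM in Sparc-led and 5.96 CPM in monocyte/macrophage-like cells. The latter limit lies close to the control value of 6.09. Ackr1, a scavenger on venules and red cells, was near 0.

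**Figure D5:**
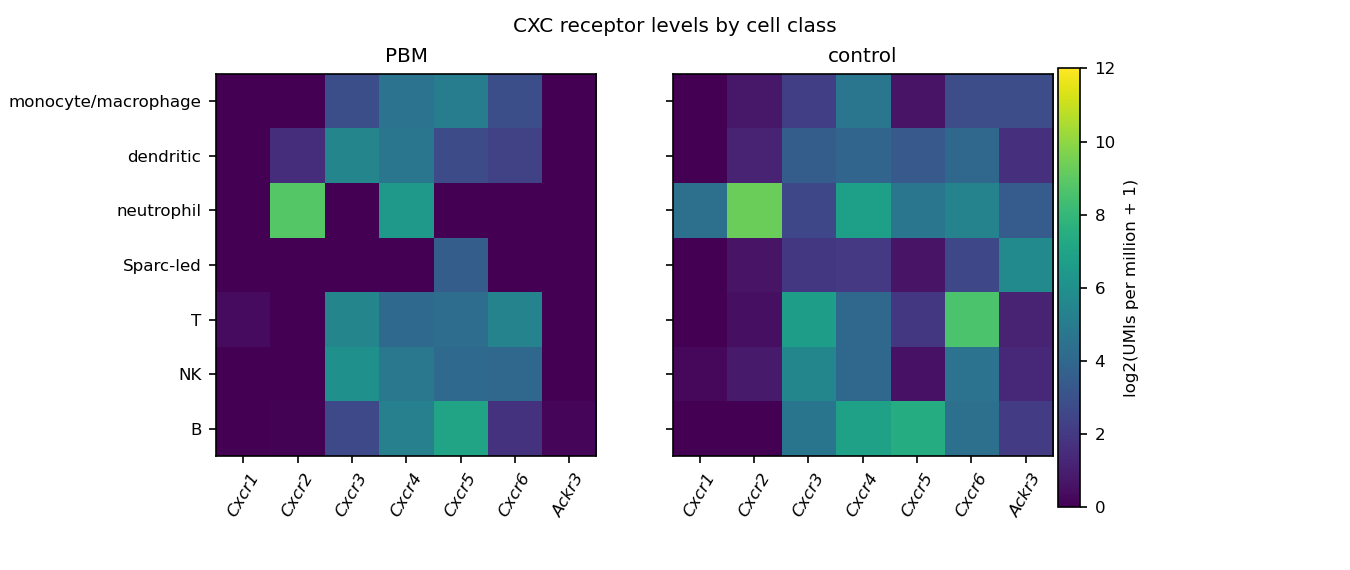
Level of CXC receptors (CPM of class UMIs) by cell class in PBM and control. Cxcr2, a marker used to name the class, is highest in neutrophil-like cells (449 CPM in 12 PBM cells, 631 in 71 control cells). Cxcr5 is highest in B-like cells (128 and 169) and Cxcr6 in control T-like cells (391).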

How the data were processed

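One PBM library and 1 control library of sorted CD45-positive tumour cells were used. What the authors deposited are UMI counts for each gene in each cell, not normalized. Per the submitters' processing notes, Cell Ranger 7.2.0 and mm10 were used, and the matrix headers, per the file headers, name PISA 0.12; which made the counts is not given in the sources used here. Barcodes under 500 UMIs or 200 genes, or over 10% mitochondrial UMIs, were dropped (1 in PBM, 11 in control). Scrublet removed 902 PBM (6.46%) and 131 control (1.17%) cells as doublets. The rest were clustered together on 2000 variable genes without the 7 members, with 30 principal components, 15 neighbours and Leiden resolution 1.0 (scanpy 1.11.5). Clusters were named "-like" from marker lists, with at least 3 markers, and names may differ from the study's. The monocyte/macrophage-like and dendritic-like cells were then clustered again.

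Levels are summed UMIs as CPM of the class, with exact Poisson intervals, shares have exact binomial (Clopper-Pearson) intervals, and ratios have conditional binomial intervals (scipy 1.17.1). Counts of 0 were set to 3 UMIs for the ratio, which is not the limit of its interval. Ratios were made for groups of at least 50 cells in each library and were tested on simulated Poisson counts, the form that the intervals assume. Counts clumped in a few cells were not simulated, so the simulation does not show that the intervals hold for them. A gene entered the share of genes past 2-fold with at least 20 UMIs over both libraries. A gene at 0 in 1 library, with a level in the other at or below 3 UMIs of the first, stayed in that share as neither lower nor higher. In monocyte/macrophage-like cells these were 2408 of 13780 genes. Among genes with at least 100 UMIs there, 11.6% were at least 2-fold lower in PBM and 7.49% higher. The median cell held 5144 UMIs in PBM and 5622 in control. Named genes are the members, every CXC receptor, the 3 genes most like each member over clusters, and the 2 highest and lowest of each list. The members and lists were chosen with earlier results of these data known. In all, 12 alternatives were planned and 2 added after seeing the data.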

Additional observations from a re-analysis of the deposited data

Results flagged for a closer look

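Each cluster with enough cells was set against dendritic-like cells, and the main clusters against each other. In 5 of these pairs the same member went opposite ways between PBM and control, with counting intervals that did not reach 0; the difference itself was not tested, since there was 1 library per condition. Cxcl10 had a log2 ratio of 0.60 in the Cfb-led cluster and -1.77 in dendritic-like cells, 2.37 apart, and -1.71 in the Ace-led cluster, 2.32 apart. Without the PBM cell with the most Cxcl10, the Cfb-led value was 0.07. In the Igkc-led sub-cluster, Cxcl10 had 2.02, which is 3.78 above dendritic-like cells, Cxcl9 had 1.16, against -2.59 in dendritic-like cells, 3.75 apart (0.57, with an interval that reached 0, without 1 PBM cell), and Cxcl16 had 2.12, against -2.60 in dendritic-like cells, 4.72 apart. Other pairs, not among those compared, also stood opposite: Cxcl10 was at -2.49 in T-like, -2.94 in NK-like and -3.57 in B-like cells, Cxcl9 at -1.53 in the Cfb-led cluster and Cxcl16 at -3.73 in the Ace-led cluster (1 PBM UMI). The Cfb- and Ace-led clusters share PBM cells with the Igkc-led sub-cluster, so these units are not separate sets of cells.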

How the results depend on the processing

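Over 13 alternatives, 3 to 4 members were at least 2-fold lower in PBM monocyte/macrophage-like cells and 0 were higher, but not always the same members. With each library clustered on its own, Cxcl2 (-0.45) and Cxcl3 (-0.30) were no longer among them. Cxcl9 (-2.06) and Cxcl16 (-1.21) were, and Cxcl10 (-0.56) was not. The count of 3 in that setting thus includes Cxcl1 or Cxcl12, both scarce. With classical monocyte-like cells alone Cxcl10 took the place of Cxcl3. The log2 ratio ran from -2.99 to -0.45 for Cxcl2, from -3.18 to -1.86 for Cxcl9, from -1.21 to -0.12 for Cxcl16, from -1.83 to 0.32 for Cxcl10 and from -2.12 to 0.31 for Cxcl3. Cxcl3 reversed to 0.31 with classical monocyte-like cells alone, an alternative added after seeing the data; the cause was not tested. With each cell thinned to 1000 UMIs, 4 of the 7 members had their highest control level in the class given in the text. The others were Cxcl10 (211 CPM in neutrophil-like, 225 in monocyte/macrophage-like cells), Cxcl1 (5.80 in Sparc-led, 5.49 in monocyte/macrophage-like cells) and Cxcl12, with no UMI left in any of these classes. No paired analysis was possible because there was 1 library per condition. Few PBM UMIs lay behind Cxcl2 (39) and Cxcl3 (18).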
